A study of Drosophila melanogaster with 4 samples.

Results

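The Hox genes of Drosophila melanogaster lie in a pair of complexes on chromosome arm 3R, and the distribution of H3K79me1 over both complexes in adult head is described here. H3K79me1 is monomethylation of histone H3 on a lysine of its globular core. The 9 genes, of 17872 in the RefSeq gene table of the fly, were lab, pb, Dfd, Scr, ftz and Antp in the Antennapedia complex and Ubx, abd-A and Abd-B in the bithorax complex. The complexes were taken as 2 windows fixed on FlyBase release 5. These ran from 2480000 to 2890000 on 3R for the Antennapedia complex and from 12470000 to 12820000 for the bithorax complex. That the windows hold the 9 genes was not checked against gene models of release 5. Every region with at least 1 base in a window was taken. There were 6 such regions of 7603 in the list of ChIP replicate 1, 7 of 8137 in that of ChIP replicate 2, and 8 of 12942 in the authors' list for the combined replicates. The windows had been chosen because earlier results on the same lists showed long stretches without a region there. The emptiness of the windows is therefore a description, and no test was made of it.

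The series holds 4 samples, 2 ChIP libraries made with an H3K79me1 antibody (Abcam lot 1) and 2 input libraries of genomic DNA, all from nuclei of adult heads. The flies were wild-type Oregon-R, labelled as mixed adult, kept in population cages, and their heads were collected with sieves, so each library pools many animals and every cell type of the head. In such material, fewer cells with the mark and less of the mark per cell cannot be told apart. The measurements are regions in which the authors called the ChIP signal above the input, each with a position and a score without a stated unit. Nothing in the labels ties the replicates to separate fly collections, so the spread between them measures these libraries and may be technical. The depth of the libraries is unknown.

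Hox genes encode homeodomain transcription factors that give segments along the body axis their identity, and in the fly their order on the chromosome follows the order of the body parts in which they act. Outside these parts the complexes are kept silent by Polycomb group proteins, and trithorax group proteins maintain the active state. Methylation of this lysine is made by enzymes of the Dot1 family, grappa in the fly, and marks mainly the bodies of active genes. The Antennapedia complex acts in the head and the anterior thorax. In it, lab, pb and Dfd act in head segments, Scr in the labial segment and the prothorax, and Antp in the thorax, while ftz is a pair-rule gene that sets up segments in the embryo. The bithorax complex acts further back, with Ubx in the posterior thorax and the anterior abdomen, abd-A in the middle of the abdomen and Abd-B at its end.

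In the RefSeq gene order of Release 6, used for names and neighbours, 44 genes ran from lab to Antp, of which 20 were protein-coding and 16 were lncRNA genes. Besides the 6 Hox genes these included 7 genes of the Ccp84A family of cuticle proteins between lab and pb, the homeobox genes zen2, zen and bcd, the gene Ama, and the miRNA genes mir-993 and mir-10. Of these, bcd encodes the anterior determinant of the embryo, and zen acts in dorsal patterning. From Ubx to Abd-B the order held 16 genes, of which 6 were protein-coding and 7 were lncRNA genes, including lncRNA:bxd, lncRNA:iab4 and lncRNA:iab8 and the miRNA genes mir-iab-4 and mir-iab-8. The nearest protein-coding genes outside the complexes were agt before lab, modSP before Ubx, Sodh1 after Antp and VhaM9.7-d after Abd-B, where agt encodes a DNA repair enzyme and modSP a serine protease of the immune response. Gene models of release 5 were not used here, so regions are given by position and none is assigned to a gene.

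H3K79me1 regions covered less than 3% of either Hox window. All but 1 of the regions crossed a window edge or lay inside the window within 10 kb of an edge. In the Antennapedia window replicate 1 gave a covered share of 0.940%, replicate 2 gave 1.37% and the combined list gave 1.43% (mean of the replicates 1.15% ± 0.301, SD, n = 2). The same 3 lists gave 1.53%, 1.02% and 2.50% for the bithorax window (mean of the replicates 1.27% ± 0.364, SD, n = 2). The replicates thus placed the complexes in opposite order, and the difference between their means was smaller than the spread between replicates in either window. The length without a region was 406 kb, 404 kb and 404 kb in the Antennapedia window and 345 kb, 346 kb and 341 kb in the bithorax window. Over the rest of 3R the covered share was 20.8%, 23.2% and 39.4% (mean of the replicates 22.0% ± 1.66, SD, n = 2).

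**Figure D1:**
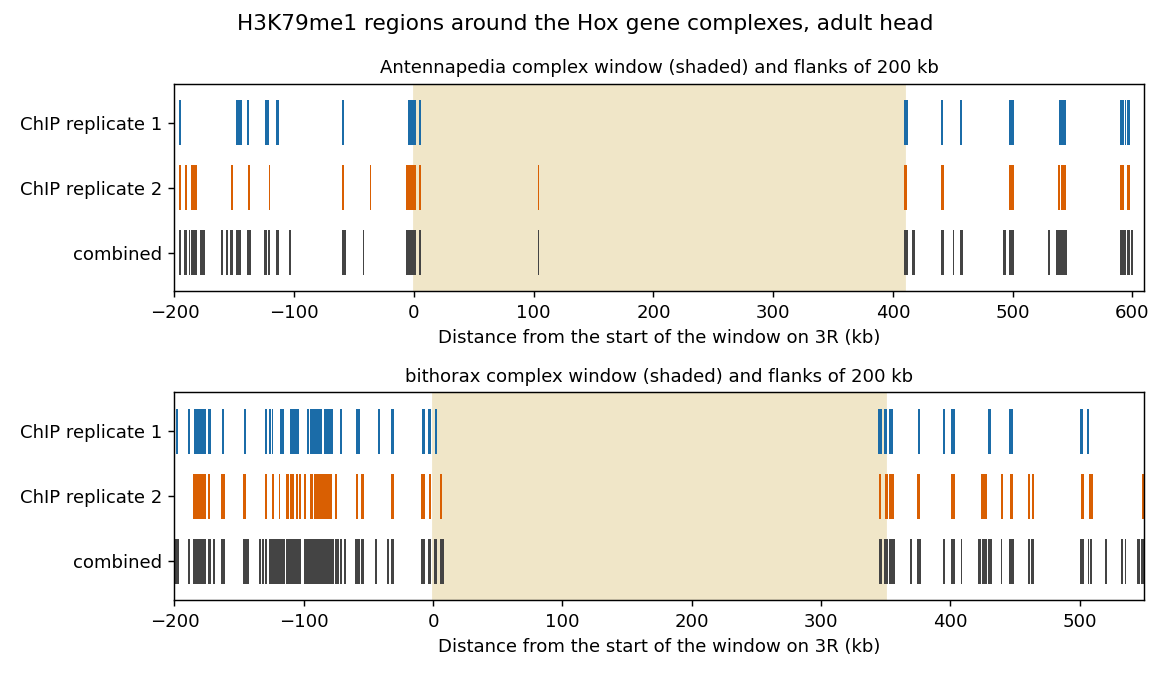
Each bar is an H3K79me1 region, drawn to scale, in the replicate 1, replicate 2 and combined lists, by distance in kb from the start of the window; the window is shaded. The bars stop at the shaded window on both sides in all 3 lists, apart from regions near the window edges and 1 narrow region 103 kb into the Antennapedia window in replicate 2 and the combined list.

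At the start of the Antennapedia window a wide region crossed the edge. In the combined list it ran from 2473590 to 2481940 (8351 bp, score 0.698), in replicate 1 from 2474784 to 2481583 (6800 bp, score 0.824) and in replicate 2 from 2479294 to 2481987 (2694 bp, score 0.669). Its score was no lower than that of 92.8%, 83.0% and 63.7% of the regions of its own list. In replicate 2 a separate region from 2473753 to 2479186 lay just outside the edge, so that the same sequence was covered in 2 pieces.

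A second, weaker region followed inside the window in all 3 lists. It ran from 2484168 to 2486030 in the combined list (1863 bp, score 0.337), from 2484323 to 2486036 in replicate 1 (1714 bp, score 0.438) and from 2484158 to 2485897 in replicate 2 (1740 bp, score 0.364). These scores were near the bottom of each list, at the 7.41, 1.63 and 0.823 percentile. Positions agreed closely between the replicates, which shared 1575 bp of it.

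The only region away from the edges of either window was narrow and had a low score. It lay 103 kb into the Antennapedia window, from 2583286 to 2584720 in the combined list (1435 bp, score 0.307, 3.59 percentile) and from 2583312 to 2584662 in replicate 2 (1351 bp, score 0.521, 18.3 percentile). Replicate 1 held no base of it. This region split the free part of the window, in the combined list, into 97.3 kb on its left and 305 kb on its right.

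The other end of the Antennapedia window was met by a region that all 3 lists placed alike. It began at 2889388 in the combined list (2887 bp, score 0.602), at 2889447 in replicate 1 (2959 bp, score 0.671) and at 2889482 in replicate 2 (2470 bp, score 0.598). These scores stood at the 84.3, 47.8 and 41.3 percentile, in the middle or upper part of each list. Only 519 to 613 bp of this region lay inside the window.

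At the start of the bithorax window the replicates held different regions. Replicate 1 held a region from 12471253 to 12472636 (1384 bp, score 0.522, 8.08 percentile), and replicate 2 had no base of it. Replicate 2 held a region from 12475368 to 12477039 (1672 bp, score 0.389, 1.65 percentile), and replicate 1 had no base of it. The combined list held both, from 12470954 to 12472816 (1863 bp, score 0.320) and from 12475306 to 12478132 (2827 bp, score 0.329), at the 5.05 and 6.39 percentile. All 4 calls were thus among the lowest-scoring of their lists.

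At the far end of the bithorax window the replicates held the same pair of regions. The first ran from 12814410 to 12817082 in the combined list (2673 bp, score 0.507, 67.0 percentile), from 12814358 to 12817086 in replicate 1 (2729 bp, score 0.726, 63.3 percentile) and from 12815099 to 12816609 in replicate 2 (1511 bp, score 0.600, 42.5 percentile). The next crossed the window edge, from 12818598 to 12821636 in the combined list (score 0.466), from 12818752 to 12820661 in replicate 1 (score 0.562) and from 12819625 to 12821623 in replicate 2 (score 0.537). No region in any list lay between the first of these and the start of the window beyond 12478132.

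Of the 8 combined regions in the windows, 5 overlapped regions of both replicates, 1 overlapped replicate 1 alone and 2 overlapped replicate 2 alone. Those found in both were 3 of 4 in the Antennapedia window and 2 of 4 in the bithorax window. Of the covered length inside the Antennapedia window, 3.68 kb was shared by the replicates, which made up 95.5% of what replicate 1 covered and 65.7% of what replicate 2 covered. Inside the bithorax window 1.89 kb was shared, which made up 35.2% and 53.0%. Neither the counts nor these shares were set against the rest of 3R. Whether such overlap is usual for the arm is therefore not known. Median scores of the regions in the windows were 0.617, 0.537 and 0.401 in replicate 1, replicate 2 and the combined list, against 0.666, 0.610 and 0.440 over the rest of 3R. For regions in the 200 kb on each side of the windows the medians were 0.658, 0.605 and 0.413. With 6 to 8 regions a list in the windows, these medians are descriptions only.

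Just outside the window edges, the nearest combined region lay 41.8 kb before the Antennapedia window, from 2437078 to 2438204 (score 0.448), and 5.82 kb after it, from 2895816 to 2898448 (score 0.359). For the bithorax window these distances were 1.35 kb on the left, from 12466102 to 12468650 (score 0.475), and 2.26 kb on the right, from 12822262 to 12826972 (score 0.659). The regions just inside the edges are those given above.

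Counted in bins of 10 kb, most of either complex was empty. In the Antennapedia window, of 41 bins, 2 (replicate 1), 3 (replicate 2) and 3 (combined list) held a base of a region, against 54.6%, 59.0% and 77.1% of 2712 bins on the rest of 3R. In the bithorax window it was 2 of 35 bins in each of the 3 lists. Since the windows were chosen for their lack of regions, nothing is read from the gap between these shares.

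The longest stretch of 3R without a region lay in a Hox window in every list, and the next longest lay in the other. The windows were chosen for such stretches, so these ranks follow in part from that choice. In replicate 1 the Antennapedia stretch came first, with 403 kb from 2486037 to 2889446, ahead of the bithorax stretch of 342 kb from 12472637 to 12814357. In replicate 2 the bithorax stretch came first, with 338 kb from 12477040 to 12815098, ahead of 305 kb from 2584663 to 2889481 in the Antennapedia window. The combined list gave the same order as replicate 2, with 336 kb and 305 kb. The order thus turned on the single narrow region that replicate 1 did not hold. Over the replicates the length was 340 kb ± 2.59 for the bithorax stretch and 354 kb ± 69.7 for the Antennapedia stretch (SD, n = 2).

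**Figure D2:**
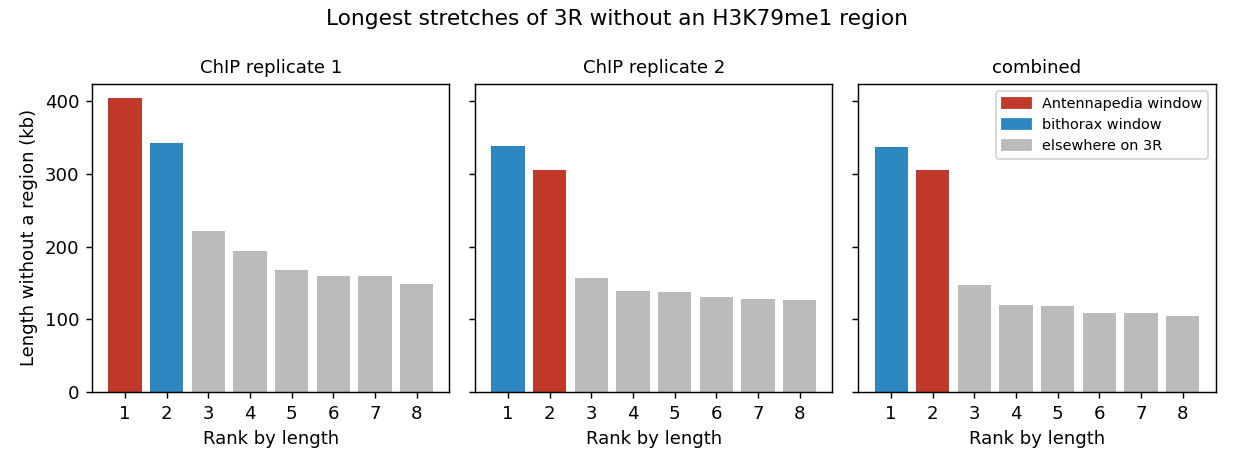
Bars give the length in kb of the 8 longest stretches of 3R without a region in each list, by rank; red and blue mark those in the Antennapedia and bithorax windows and grey those elsewhere. In each panel the first and next bars are the Hox stretches, and the third is 221 kb in replicate 1, 157 kb in replicate 2 and 147 kb in the combined list.

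The third longest stretch was shorter than either Hox stretch in each list. It measured 221 kb from 23960306 to 24181109 in replicate 1, 157 kb from 19207797 to 19365127 in replicate 2 and 147 kb from 19218385 to 19365047 in the combined list. On 3R, 28, 17 and 8 stretches reached 100 kb, and the median gap between neighbouring regions was 3.96 kb, 3.68 kb and 1.81 kb. The only stretch of at least 50 kb in the bithorax window that was free of regions in all 3 lists measured 336 kb, from 12478133 to 12814357, or 96.1% of that window. The Antennapedia window held a pair of such stretches, 97.2 kb from 2486037 to 2583285 and 305 kb from 2584721 to 2889387, or 23.7% and 74.3% of it.

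Windows of the same size elsewhere on 3R held many more regions at the median. In replicate 1 the lowest count was 6 for the Antennapedia size and 3 for the bithorax size, against 3 in each Hox window. Windows were placed every 10 kb on the arm, leaving out any that touched a Hox window. They overlap one another and are not replicates, and the Hox windows had been placed to fit empty stretches, whereas these were placed on a grid. For the Antennapedia complex, 0 of 2592 windows (0%) were covered as little in any of the 3 lists, and the lowest were covered to 2.66%, 5.97% and 15.2% in replicate 1, replicate 2 and the combined list. Their medians were 21.3%, 23.6% and 40.4%, with a median of 29, 32 and 48 regions a window.

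For the bithorax complex, 1 of 2610 windows (0.0383%) was covered as little in replicate 1, and 0 of 2610 (0%) in replicate 2 and in the list of combined replicates. The window that was emptier in replicate 1 ran from 23830001 to 24180001 and was covered to 1.32% there. The same window was the lowest elsewhere on the arm in the other lists too, but with 4.54% in replicate 2 and 13.7% in the combined list. Median covered shares were 20.9%, 23.6% and 40.7%.

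**Figure D3:**
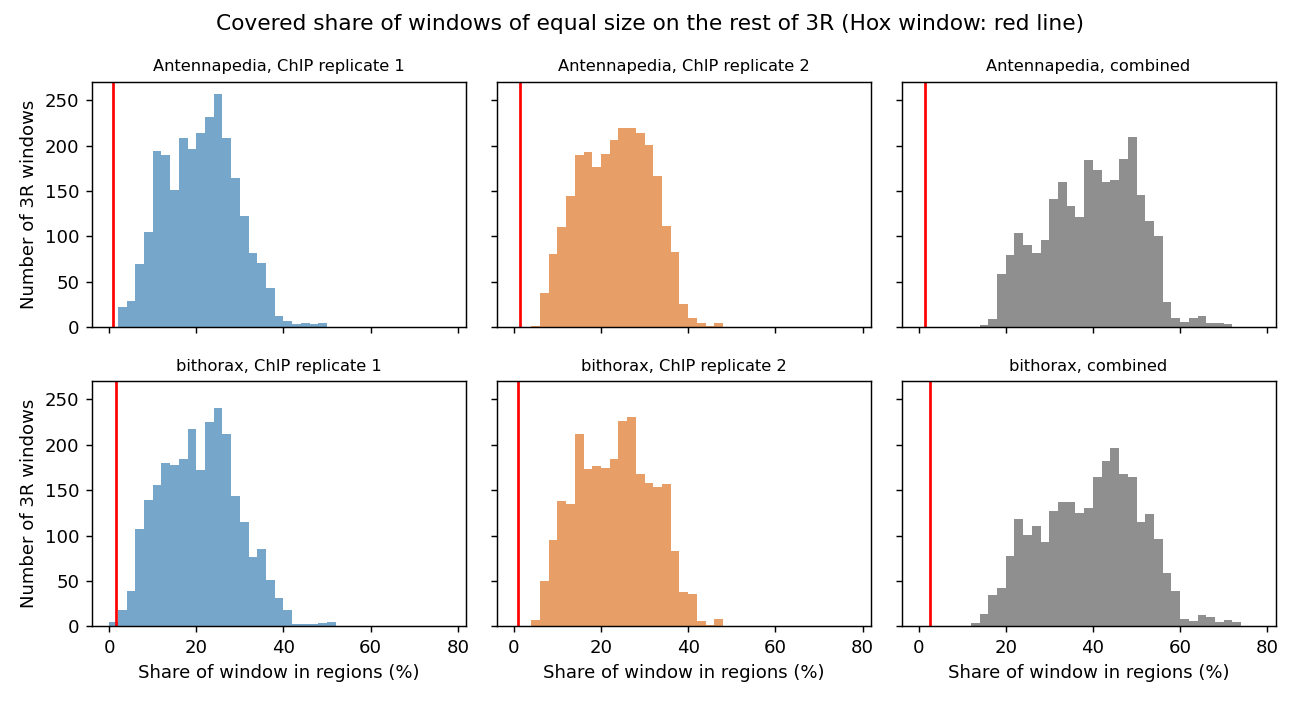
Histograms give the number of 3R windows by covered share in percent, for windows as long as the Antennapedia window (top) and the bithorax window (bottom) in each list; the red line is the Hox window. The red line lies left of every window, except in replicate 1 for the bithorax complex, where 1 window of 1.32% lies below its 1.53%.

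The 200 kb on each side carried regions again. Between the complexes, the covered share of the left flank differed in the same direction in all 3 lists. The replicates ordered the right flanks of the complexes differently. Around the Antennapedia window the left flank was covered to 10.5%, 11.5% and 23.8% in replicate 1, replicate 2 and the combined list, and the right flank to 11.5%, 9.65% and 18.6%. These flanks were themselves in the lower part of the arm. Of 2655 windows of 200 kb on the rest of 3R, 14.2% were covered no more than the left flank and 8.59% no more than the right flank in the combined list. The median of those windows was 39.1%.

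The bithorax window was flanked unevenly. Its left flank was covered to 31.9%, 29.4% and 51.9%, and its right flank to 10.2%, 14.4% and 24.6%. In the combined list 78.5% of 200 kb windows were covered no more than the left flank and 15.3% no more than the right. Left and right differed in the same direction in all 3 lists, with replicate means of 30.7% ± 1.82 and 12.3% ± 2.97 (SD, n = 2). In the Antennapedia flanks the replicate means of 11.0% ± 0.717 on the left and 10.6% ± 1.28 on the right differed by less than the spread.

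Coverage of the window over that of its flanks was 0.0673 for the Antennapedia complex and 0.0655 for the bithorax complex in the combined list. In replicate 1 it was 0.0858 and 0.0727, and in replicate 2 it was 0.129 and 0.0465. The windows were thus covered far less than their flanks in all 3 lists, which the choice of the windows fixes in part.

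The dense left flank of the bithorax complex held wide regions. The widest in the combined list spanned 23.3 kb from 12369852 to 12393148 (score 0.687), and its near end lay 76.9 kb from the window. Replicate 2 held a region of 13.9 kb from 12378010 to 12391944 there, and replicate 1 held its highest-scoring flank region there, 7.38 kb from 12385513 to 12392888 (score 0.946, 94.2 percentile). A second wide region of that flank ran from 12284220 to 12294668 in the combined list (10.4 kb, score 0.772, 95.9 percentile), with 8.84 kb in replicate 1 and 10.2 kb in replicate 2. On the right, the widest combined region was 4.71 kb and began 2.26 kb from the window.

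In the Antennapedia flanks, leaving out regions that cross a window edge, the widest combined region was 5.15 kb on the left, 181 kb from the window, and 8.51 kb on the right, from 3016546 to 3025056. The widest on the right measured 6.10 kb in replicate 1 and 4.20 kb in replicate 2, against 3.34 kb and 4.08 kb on the right of the bithorax window. The highest-scoring region of the right flank was the same in all 3 lists, at 3069362 to 3072932 in the combined list (score 0.893, 98.3 percentile), with scores of 0.990 in replicate 1 and 0.914 in replicate 2. The replicates shared less of the left flank, 9.61 kb (46.0% of the length in replicate 1, 41.9% in replicate 2), than of the right flank, where they shared 77.0% and 91.5%. For the bithorax flanks these shares were 68.0% and 74.0% on the left and 66.5% and 47.1% on the right. Long gaps also occurred inside the flanks of both windows. In the combined list they reached 42.5 kb on the left and 44.3 kb on the right of the Antennapedia window. For the bithorax window they reached 20.6 kb and 35.5 kb. Gaps were counted only within the 200 kb of each flank, so a gap that ran past the outer end was cut there. On the right the Antennapedia and bithorax gaps so counted were 44.4 kb and 52.2 kb in replicate 1, and 54.6 kb and 38.0 kb in replicate 2. The gap of 38.0 kb reached the outer end of its flank, so nothing is read from the order of the complexes.

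Coverage next to the longest combined stretches differed between the lists. A bin that starts at a region's edge holds part of that region by construction in the combined list. In the first 10 kb outward on the left of the bithorax stretch, replicate 1 covered 15.5%, replicate 2 19.3% and the combined list 52.1%. On its right they covered 65.2%, 53.6% and 78.6%, and on the right of the Antennapedia stretch 29.6%, 24.7% and 55.2%. Beyond these bins the covered share of the combined list did not rise steadily. On the right of the Antennapedia stretch the bins from 10 to 30 kb held 0%, and on the left of the bithorax stretch the bin from 20 to 30 kb held 0%. By 50 kb steps, the left side of the bithorax stretch went from 29.5% to 58.9%, 75.1% and 47.4%, and the right side from 29.2% to 32.4%, 17.3% and 19.4%.

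The left end of the Antennapedia stretch was set by the narrow region 103 kb into the window. In the first 100 kb outward the combined list covered 2.87% and 2.62% of each 50 kb, and the share reached 20.1% only from 100 to 150 kb, where the regions at the window's start lie. In replicate 1 the first 50 kb held 0%.

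**Figure D4:**
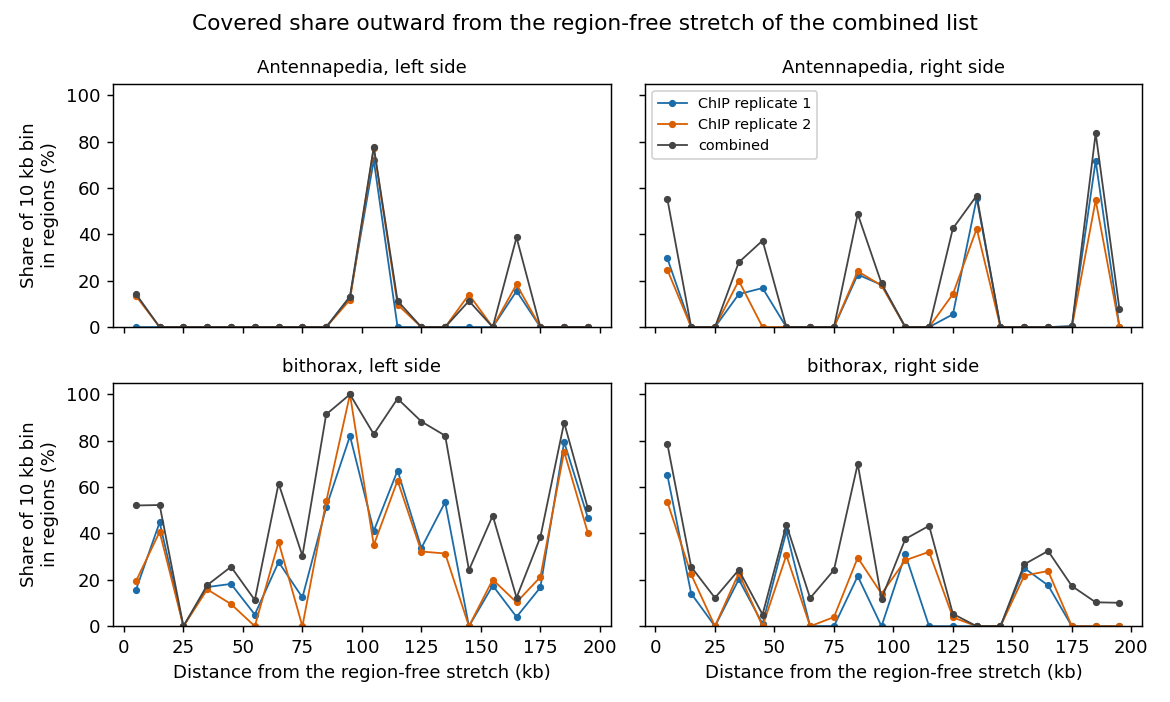
Lines give the share of each 10 kb bin inside regions, in percent, by distance in kb outward from the longest region-free stretch of the combined list, for each complex, side and list. The bithorax left side rises to bins above 80% in the combined list about 100 kb away, while the Antennapedia left side, beyond its first bin, holds 0% in all 3 lists until about 90 kb.

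The replicates placed some of these borders within 1 kb of each other. The right border of the Antennapedia stretch differed by 35 bp between the replicates and by 59 and 94 bp from the combined list. The end of the region at 2486030, where the empty part of the Antennapedia window begins, differed by 139 bp between the replicates. The right border of the bithorax stretch differed by 741 bp. Its left border differed by 4403 bp, as the nearest replicate regions were different ones.

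Elsewhere on 3R the combined list had 36 empty stretches that were 50 kb or longer, with 72 borders. The region at the border had a base in both replicates at 18 of these (25%), against 3 of 6 at the borders of the 3 Hox stretches of that length. Both replicates had an edge of the same kind within 1000 bp at 13 of the 72 and at 3 of the 6. The narrow region inside the Antennapedia window gives 2 of the 6, so they are not independent. Likewise, a region from 13756108 to 13757108 borders a pair of the other stretches. Most of the other stretches were also shorter than any of the Hox stretches. The difference was not tested.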

How the data were processed

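Alignment used Bowtie 0.12.7 according to the submitters' processing notes. What the authors deposited are lists of enriched regions, with a score for each region that has no stated unit, for each of 2 ChIP replicates and for the combined replicates. Coordinates are on FlyBase r5, per the file headers. The sources used here do not give the region caller, its threshold or the way of combining replicates. Inputs enter only through the authors' calls, and library depth is unknown.

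From these lists, covered lengths, gaps and borders were computed with Python 3.11.15 and numpy 2.4.6, and figures were drawn with matplotlib 3.10.9. Joined header lines were split, and 1 region named as depleted was left out. Coordinates are 1-based. A percentile is the percent of a list's regions with a score no higher. The computation was tested on simulated lists. The windows, members and measures were chosen with earlier results of these data known. Named regions are every region in a window, the first pair outward of each border and, in the flanks, the widest and highest-scoring, a choice made after the data were seen. The combined list gave the main values. Alternatives were single replicate lists, bases in both, higher-scoring or wider regions, merged regions, a 50% overlap, shorter flanks and other comparison windows. Assembly gaps and repeated sequence were not analysed.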

Additional observations from a re-analysis of the deposited data

How the results depend on the processing

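Of 68 alternative values for 10 results, 29 counted as the same and 39 as moved. A value counted as the same if it was unchanged or moved by less than the spread between replicates. For counts of regions the limit was a change of no more than 1.5 times. The covered share of each window stayed below that of its flanks under every list tried, which the choice of the windows from these lists fixes in part. Single replicate lists gave 3 to 4 regions in the Antennapedia window and 3 in the bithorax window, covered shares of 0.940% to 1.37% and 1.02% to 1.53%, longest stretches of 305 to 403 kb and 338 to 342 kb, flank shares of 10.6% to 11.0% and 21.1% to 21.9%, and 0% and 0% to 0.0383% of equal-sized windows covered no more. Bases in both replicate lists gave covered shares of 0.897% and 0.539%, stretches of 404 kb and 347 kb, flank shares of 6.81% and 14.3%, 2 segments in the bithorax window, and 0.579% and 0.805% of windows covered no more. The higher-scoring 50% of regions gave 2 regions in each window, shares of 0.623% and 1.16%, stretches of 407 kb and 346 kb and flank shares of 10.7% and 25.6%. Regions of at least 2000 bp gave 2 in the Antennapedia window, shares of 0.623% and 1.97%, a stretch of 407 kb there and flank shares of 15.6% and 29.7%. Merging within 1000 bp moved only the flank shares, to 22.1% and 39.5%. Flanks of 100 kb gave 14.8% and 39.1%. Counting only regions with at least 50% inside the window left 2 in the Antennapedia window. With windows on all 5 large arms, 0.104% were covered no more than the bithorax window. Fewer regions enter under the stricter lists by construction; the cause of the other changes was not tested. Unknown depth limits every comparison between lists. No paired analysis was possible because only the ChIP samples carry values.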
